A study of Mus musculus with 3143 samples.

Results

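Immediate early genes are switched on within minutes of a stimulus, and many of them are also induced when tissue is taken apart with enzymes. The 35 genes of this kind described here were taken by symbol from the 46517 gene names of the count table, and all 35 had a row. They comprise 4 Fos and 3 Jun family genes, Atf3 and Maff, 3 EGR and 3 NR4A factors, 6 other regulators (Klf6, Myc, Csrnp1, Per1, Ier2, Ier5), 4 genes of mRNA decay (Zfp36, Zfp36l1, Btg1, Btg2), 4 MAP kinase phosphatases (Dusp1, Dusp2, Dusp5, Dusp6) and 6 stress and cytokine feedback genes (Gadd45a, Gadd45b, Ppp1r15a, Socs3, Ier3, Rhob). The choice was made by symbol and not by a cut on values, but earlier results of these data were known.

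The study sorted single cells of kidney glomeruli, the filtering tufts of capillaries, from adult C57BL/6 mice with the treatment label IgAN or Control, and sequenced each cell by Smart-seq2, a full-length method without molecular identifiers. IgAN stands for IgA nephropathy, per the series title. The labels name no genetic change, say nothing of how IgAN was brought about, and do not tie cells to animals. All cells of both groups shared the same handling, a warm digestion of the glomerular fraction with collagenase IV, pronase E and DNase I, a repeat round for glomeruli that stayed whole, and sorting of cells positive for a viability dye into 384-well plates.

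There were 1798 IgAN cells on 6 plates (313, 315, 316, 318, 322 and 325) and 1345 Control cells on 4 plates (314, 317, 321 and 326). Because no plate carried both groups, an effect of the plate cannot be told apart from that of the group. With no animal named, each group counts as 1 sample. No test was therefore made between the groups, and the spread over plates is given in its place. Cells had 50365 to 1135415 reads in genes (median 231222 for IgAN and 241543 for Control), and the plate medians ran from 177508 on plate 325 to 396718 on plate 322.

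In the textbook scheme, growth factors, cytokines, shear and tissue injury act through MAP kinases and calcium on factors already present in the cell, such as SRF and CREB, which start transcription of these genes without new protein synthesis. Fos and Jun proteins pair to form AP-1, EGR and NR4A proteins are further DNA-binding factors, and the response is closed by its own products. Dusp1 and its relatives remove phosphate from MAP kinases, Zfp36 proteins speed the decay of AU-rich mRNAs, and Socs3 blocks cytokine receptor signalling. Levels in cells freed from kidney by warm digestion can hold both a response of the living tissue and the response to its dissociation, and these files hold no cells prepared in another way.

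The promoters of 30 of the 35 genes were found in the RefSeq table (GRCm38.p6); Fosl1, Myc, Egr1, Egr3 and Ier2 were not matched. In the window from 250 bases before to 50 bases after the start, the CREB motif core TGACG, read on either strand, was present in 17 of 30 promoters (56.7%), against 23% of 27025 genes in the table. The AP-1 motif TGANTCA was present in 2 of 30 (6.67%, against 8.97% of all genes), and the CArG box, the motif bound by SRF, in 3 of 30 (Egr2, Zfp36 and Dusp5, or 10%, against 1.81% of all genes). The following 6 are shown because they carry the TGACG core and belong to genes on which the results below turn. Each run covers bases 200 to 51 before the start, 5′ to 3′ on the gene's strand, with TGACG or its reverse complement in capitals; a capital run of 8 letters is a pair of cores that overlap on opposite strands.
Fos: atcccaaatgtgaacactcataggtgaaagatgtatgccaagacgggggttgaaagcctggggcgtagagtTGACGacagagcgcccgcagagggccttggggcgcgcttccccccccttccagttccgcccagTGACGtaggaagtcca
Fosb: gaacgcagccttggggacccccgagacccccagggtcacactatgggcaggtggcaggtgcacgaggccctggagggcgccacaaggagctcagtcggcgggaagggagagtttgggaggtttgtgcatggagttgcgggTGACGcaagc
Junb: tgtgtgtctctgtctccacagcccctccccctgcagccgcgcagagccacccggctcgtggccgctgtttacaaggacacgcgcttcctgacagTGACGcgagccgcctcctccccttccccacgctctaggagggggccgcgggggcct
Nr4a1: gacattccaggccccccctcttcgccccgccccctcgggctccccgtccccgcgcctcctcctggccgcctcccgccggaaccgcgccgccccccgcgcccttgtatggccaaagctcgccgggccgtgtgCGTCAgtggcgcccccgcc
Btg2: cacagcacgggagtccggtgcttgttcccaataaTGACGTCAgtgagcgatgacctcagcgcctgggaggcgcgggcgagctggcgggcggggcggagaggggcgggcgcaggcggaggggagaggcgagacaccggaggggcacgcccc
Dusp1: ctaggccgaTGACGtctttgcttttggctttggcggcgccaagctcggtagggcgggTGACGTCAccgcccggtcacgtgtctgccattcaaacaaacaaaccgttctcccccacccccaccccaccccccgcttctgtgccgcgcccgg
On GRCm38.p6 these windows lie at chr12:85473690-85473839 (plus strand), chr7:19310096-19310245 (minus), chr8:84978799-84978948 (minus), chr15:101266646-101266795 (plus), chr1:134079206-134079355 (minus) and chr17:26508523-26508672 (minus). The cores began 129 and 66 bases before the start in Fos, 60 in Fosb, 106 in Junb, 69 in Nr4a1 on the minus strand, 166 and 163 in Btg2, and 191, 143 and 140 in Dusp1. A match describes the letters and does not show that a factor was bound.

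Cells were clustered without the 35 genes and without the further lists used below, so that these genes did not shape the groups of cells, and clusters were named from marker genes. The 24 clusters gave podocyte-like (185 cells), endothelial-like (1612), mesangial-like (166), proximal tubule-like (232), macrophage or dendritic-like (296), T or NK-like (221) and B or plasma-like cells (143), and 4 smaller classes. Of these, 3 clusters with 129 cells kept no name. The endothelial clusters split by group: cluster 0 had 375 of 403 cells from Control and was led by platelet genes (Ppbp, Itga2b, Gp9), and cluster 1 had 346 of 355 cells from IgAN. Free RNA was widespread. The 11 podocyte markers together summed in the endothelial-like class to 570 CPM (IgAN) and 691 CPM (Control), against 25700 and 27500 CPM in the podocyte-like class, so a read of a gene in a cell was not by itself taken as expression, and the share of cells with a read served only in the filter for measured genes.

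A level below is the sum of a gene's reads over the cells of a class on a plate, scaled to 1000000 reads in genes (CPM), and a class level is the mean over plates with at least 10 cells, with its range. Counting error was small beside the spread over plates. For Fos in podocyte-like cells the exact 95% Poisson interval was 315 to 337 CPM in IgAN and 1078 to 1097 CPM in Control, while the Control plates alone ran from 513 to 1632 CPM. Counts near the top may be limited: the highest Fos count in a cell was 2816 reads over 2352 exon bases, and of 11740 gene names that reached 300 reads in some cell only 62 exceeded 1 read per exon base. How reads at the same position were handled is not given in the sources used here, and whether this compressed the highest levels was not tested.

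The 35 genes together took between 2 and 3% of reads in the immune, endothelial and parietal classes and less in mesangial, podocyte and tubule classes. Their summed level was 2.58% of reads in macrophage or dendritic-like cells (10 plates, 2.1 to 3.69%), 2.56% in endothelial-like (10 plates, 0.773 to 3.16%), 2.29% in T or NK-like (10 plates, 1.82 to 3.06%), 2.29% in B or plasma-like (4 plates, 2.14 to 2.57%) and 2.23% in parietal epithelial-like cells (3 plates, 1.84 to 2.65%), the lining of Bowman's capsule. It was 1.20% in mesangial-like (9 plates, 0.572 to 1.51%), 0.962% in podocyte-like (6 plates, 0.726 to 1.47%), 0.794% in distal tubule or collecting duct-like (2 plates, 0.177 and 1.41%) and 0.72% in proximal tubule-like cells (7 plates, 0.169 to 2.20%). The first 5 classes overlapped in their plates and their order is not resolved. The parietal-like plates (313, 316 and 318) were all IgAN and the B or plasma-like plates all Control. In the parietal-like class mesangial markers summed to 2210 CPM (IgAN) and 2270 CPM (Control). Smooth muscle and renin markers came to 1890 and 1570 CPM, and its own markers to 3870 and 4160 CPM. Markers of 2 classes were carried by 38 of its 73 cells, and their part in its levels was not tested. Every plate of the macrophage or dendritic-like, T or NK-like, B or plasma-like and parietal-like classes lay above every plate of the mesangial-like and podocyte-like classes, and the endothelial-like class did so on every plate but 322.

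**Figure D1:**
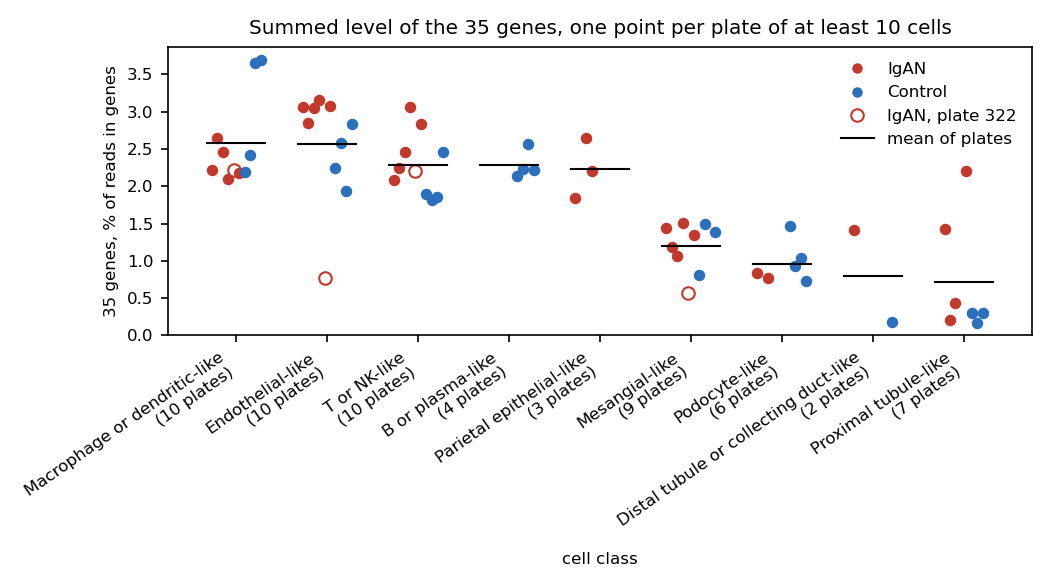
Summed level of the 35 genes as a percent of reads in genes, for each class of cells (horizontal axis); a point is 1 plate with at least 10 cells of the class, coloured by group, with plate 322 drawn open. Most endothelial-like plates lie between 1.94 and 3.16%, and plate 322 lies alone at 0.773%.

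Among the AP-1 genes, Fos was highest in endothelial-like cells (3858 CPM, plates 901 to 4946) and parietal-like cells (2807 CPM), and lowest in podocyte-like cells (750 CPM). Jun followed the same order at the top, with 1580 CPM in endothelial-like and 1257 CPM in parietal-like cells. Junb instead was highest in T or NK-like cells (2028 CPM) with endothelial-like cells next (1775 CPM). These neighbours overlapped in their plates. Fosb ranged from 92.6 CPM in podocyte-like to 719 CPM in parietal-like cells, and Jund from 102 to 386 CPM. Fosl2 lay at 52.2 to 151 CPM in 7 of 9 classes and was low in proximal tubule-like (17.1 CPM) and B or plasma-like cells (4.1 CPM). Fosl1 was at most 15.2 CPM in any class. Atf3, a bZIP factor of stress responses, was highest in macrophage or dendritic-like cells (1507 CPM, plates 890 to 2444) and Maff did not exceed 12.7 CPM.

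The EGR and NR4A factors split the classes more sharply. Egr1 was highest in parietal-like cells (2584 CPM) and endothelial-like cells (1766 CPM, plates 199 to 3053), while Egr3 was read at 46.3 CPM in B or plasma-like cells (plates 19.7 to 97.6) and at no more than 3.23 CPM elsewhere. Egr2 reached 179 CPM in parietal-like and 149 CPM in B or plasma-like cells, and 0.407 CPM in mesangial-like cells. Nr4a1, the orphan receptor Nur77 that antigen receptor signalling is known to induce, was highest in macrophage or dendritic-like (3787 CPM, plates 2689 to 5067), T or NK-like (3520 CPM, plates 2288 to 5433) and B or plasma-like cells (3285 CPM). Endothelial-like cells had 843 CPM of Nr4a1, below every plate of the macrophage or dendritic-like and T or NK-like classes. Nr4a2 and Nr4a3 were highest in T or NK-like cells at 284 and 274 CPM, with B or plasma-like cells next at 62.5 and 56.8 CPM.

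Lymphoid and myeloid cells also led for most regulators, decay factors and phosphatases. Myc was at 1166 CPM in B or plasma-like cells (plates 732 to 1780), above every plate of the next class, T or NK-like cells (249 CPM, plates 10.7 to 569). Btg1, an antiproliferative factor that joins mRNA deadenylation, was at 1707 CPM in B or plasma-like and 1636 CPM in T or NK-like cells, against 385 CPM in endothelial-like cells. The nuclear phosphatases differed among themselves. Dusp1, which acts on p38, JNK and ERK, was highest in endothelial-like cells (3076 CPM), Dusp2 in B or plasma-like cells (1336 CPM) and Dusp5 in T or NK-like cells (1118 CPM). Dusp2 was at 15.3 CPM and Dusp5 at 98.1 CPM in endothelial-like cells. Dusp6, the cytoplasmic ERK phosphatase, lay between 49.5 and 446 CPM in all 9 classes. Zfp36 reached 2120 CPM in macrophage or dendritic-like cells and Zfp36l1 was broad, from 515 to 1954 CPM.

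Endothelial-like cells led for the feedback genes Socs3 (1270 CPM, next parietal-like at 626 CPM), Rhob (1389 CPM, next 773 CPM), a small GTPase of endosomes, and Ier3 (595 CPM). Gadd45b was highest in T or NK-like cells (531 CPM). Gadd45a, a growth-arrest gene induced by DNA damage, went another way: it was at 731 CPM in podocyte-like cells (plates 622 to 839), against 137 CPM in parietal-like cells, the next class (86.8 to 210 CPM), and 22.4 to 67.5 CPM in the other 7. Per1, a clock gene, was also highest in podocyte-like cells (757 CPM) but its plates ran from 215 to 1406 CPM and overlapped those of parietal-like cells. Of the 35 genes, 9 were highest in T or NK-like cells, 7 in parietal-like, 6 in endothelial-like, 6 in macrophage or dendritic-like, 5 in B or plasma-like and 2 in podocyte-like cells. Only Egr3, Myc and Gadd45a had plates that did not overlap with the next class.

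**Figure D2:**
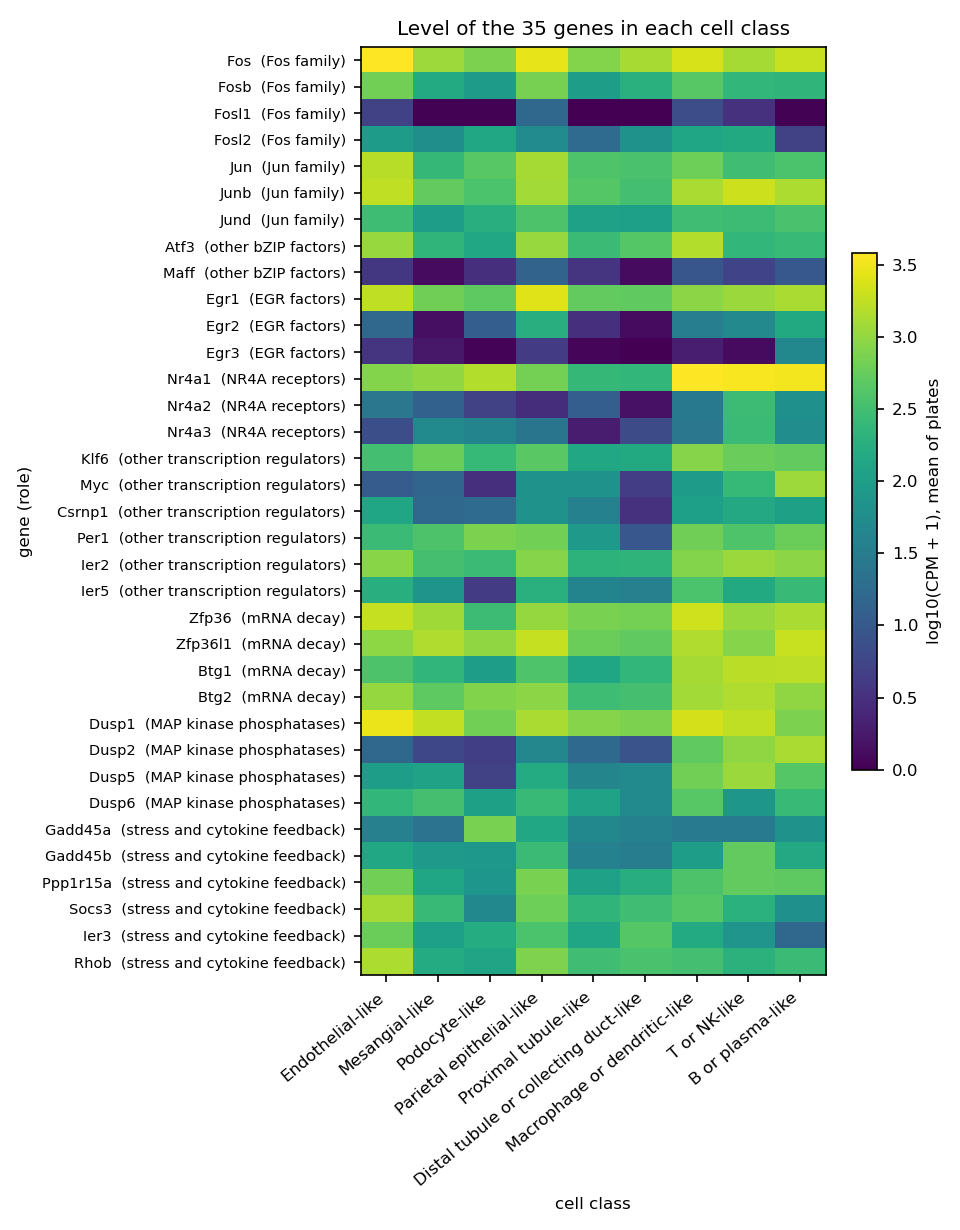
Level of each of the 35 genes (rows, grouped by role) in the 9 classes with plates of at least 10 cells (columns); colour is log10 of the mean CPM over plates plus 1. Gadd45a stands out in the podocyte-like column (731 CPM), and Nr4a1 is strong in the macrophage, T and B columns (3285 to 3787 CPM).

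Per length of exon, which is the scale for comparing genes, Fos led in endothelial-like cells at 1640 CPM per kb. Dusp1 followed at 929, Junb at 771, Rhob at 591, Ier2 at 585, Zfp36 at 541, Ier3 at 526, Jun at 495 and Atf3 at 493 CPM per kb. The lowest were Egr3 at 0.593, Nr4a3 at 1.03, Maff at 1.08 and Fosl1 at 1.96 CPM per kb. The Fos gene (ENSMUSG00000021250.13) spans chr12:85473890-85477273 and Dusp1 (ENSMUSG00000024190.7) chr17:26505590-26562128 in GRCm38, GENCODE vM21.

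Within a class the cells differed widely. Among 1612 endothelial-like cells, Fos had a lower quartile of 1180 CPM, a median of 4230 CPM and an upper quartile of 6150 CPM, and 10% of cells were at or under 92.9 CPM. Egr1 ran from 45.9 to 3430 CPM between quartiles around a median of 538 CPM, and Atf3 from 19.2 to 1690 CPM around 240 CPM. Cells in which the 35 genes took at least 1% of reads, a limit set after the data were seen, were 68.9% of all 3143 cells (2167 cells). They were 94.9% of macrophage or dendritic-like, 90.0% of T or NK-like, 75.1% of endothelial-like, 47.0% of mesangial-like and 26.5% of podocyte-like cells. Many cells lay near the limit, so these shares describe a range and not a type of cell.

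In endothelial-like cells a subset of the 35 genes varied together from cell to cell. Within a plate, the Spearman correlation of a gene with the sum of the other 34 averaged 0.78 for Fos over the 10 plates (0.61 to 0.88), 0.75 for Junb, 0.71 for Zfp36, 0.68 for Dusp1, 0.62 for Ier2 and Btg2, and 0.61 for Fosb and Socs3. By pair, Fos with Junb gave 0.71, Fos with Dusp1 0.67 and Fos with Zfp36 0.66. Dusp2 (-0.01), Gadd45a (0.01), Myc (0.02), Egr2, Fosl1 and Dusp6 (0.06 each) showed little correlation with the rest. The median cell had 0 CPM of Gadd45a, Myc, Egr2 and Fosl1, so ties at 0 limit what their values can show. The summed level correlated at 0.07 with the depth of the cell and at -0.21 with its mitochondrial share. In T or NK-like cells Junb (0.63), Egr1 and Btg2 (0.55 each) and Nr4a1 (0.50) varied most with the rest, and Fos only at 0.24. These are descriptions over cells that share a plate, not independent replicates.

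Across the 61 combinations of class and plate, the genes outside the 35 whose level was most like their summed level were Irf1 (Spearman 0.83), Klf2 (0.79), Nfkbia (0.76), Nfkbiz (0.75) and Klf4 (0.74), all in the list of further signal-response genes, and then Rap1b (0.72), Hhex (0.71) and Cdkn1a (0.70). Klf2 and Klf4 are shear-responsive factors of endothelium and Nfkbia encodes an inhibitor of NF-kB. On plate 322 the endothelial-like cells had 393 CPM of Klf2 against a class mean of 1410 CPM, and 18.4 CPM of Nfkbiz against 248 CPM, but 917 CPM of Nfkbia against 966 CPM.

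Plate 322 stood apart in its endothelial-like cells. Their summed level was 0.773% of reads, against 3.06, 2.85, 3.05, 3.16 and 3.07% on the other IgAN plates and 2.25, 2.58, 1.94 and 2.83% on Control plates 314, 317, 321 and 326. In this class 30 of the 35 genes were below all 9 other plates, and 0 were above them. Of the 30 genes measured there, 27 were below and 0 above, where 10.8% of all 9687 measured genes were below and 20.2% above. Of the 35, only Fosl1, Nr4a3, Dusp2, Dusp6 and Gadd45a were within their range. Atf3 was at 50.2 CPM against 871 to 1552 CPM elsewhere, Fosb at 39.3 CPM against 502 to 933 CPM, and Dusp5 at 3.5 CPM against 36.0 to 190 CPM. Dusp1 was less far from the other plates, at 1325 CPM against 2584 to 3968 CPM.

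The difference was one of most cells and not of a few. The median endothelial-like cell had 0.517% of its reads in the 35 genes on plate 322, 1.14% on Control plate 321, and 2.03 to 3.27% on the other 8 plates. Cells at or above 1% were 24.0% on plate 322 (42 of 175, exact 95% binomial interval 17.9 to 31.0%, counting error only), 53.9% on plate 321 and 68.7 to 87.3% elsewhere. It held inside clusters: in cluster 1 the median was 0.524% for 97 cells of plate 322 and 3.09% for the cells of other plates, and in cluster 2 it was 0.417% for 51 cells and 2.45%.

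Other classes had fewer such genes on plate 322, and fewer cells there. It held 13 macrophage or dendritic-like, 18 T or NK-like and 10 mesangial-like cells, against 175 endothelial-like cells. In macrophage or dendritic-like cells 4 of 33 measured genes were below all other plates, where 14.8% of all genes were, and 5 above them, where 17.2% were; the summed level was 2.22%. In T or NK-like cells 2 of 32 were below, where 7.35% of all genes were, and 2 above, where 13.1% were, at a summed level of 2.20%. In mesangial-like cells 11 of 30 were below, where 17.8% of all genes were, and 1 above, where 17.7% were, and the summed level of 0.572% was the lowest of 9 plates. Plate 322 was also the deepest plate and had the lowest median mitochondrial share (1.15%, against 1.26 to 1.97% on the others). In mesangial-like cells the endothelial markers summed to 5660 CPM in IgAN (plates 5010 to 6790) and 4850 CPM in Control (4720 to 5250). Their own markers came to 9910 and 10900 CPM, and 152 of the 166 cells carried markers of 2 classes. The part of depth, mitochondrial share and endothelial markers in these results was not tested.

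**Figure D3:**
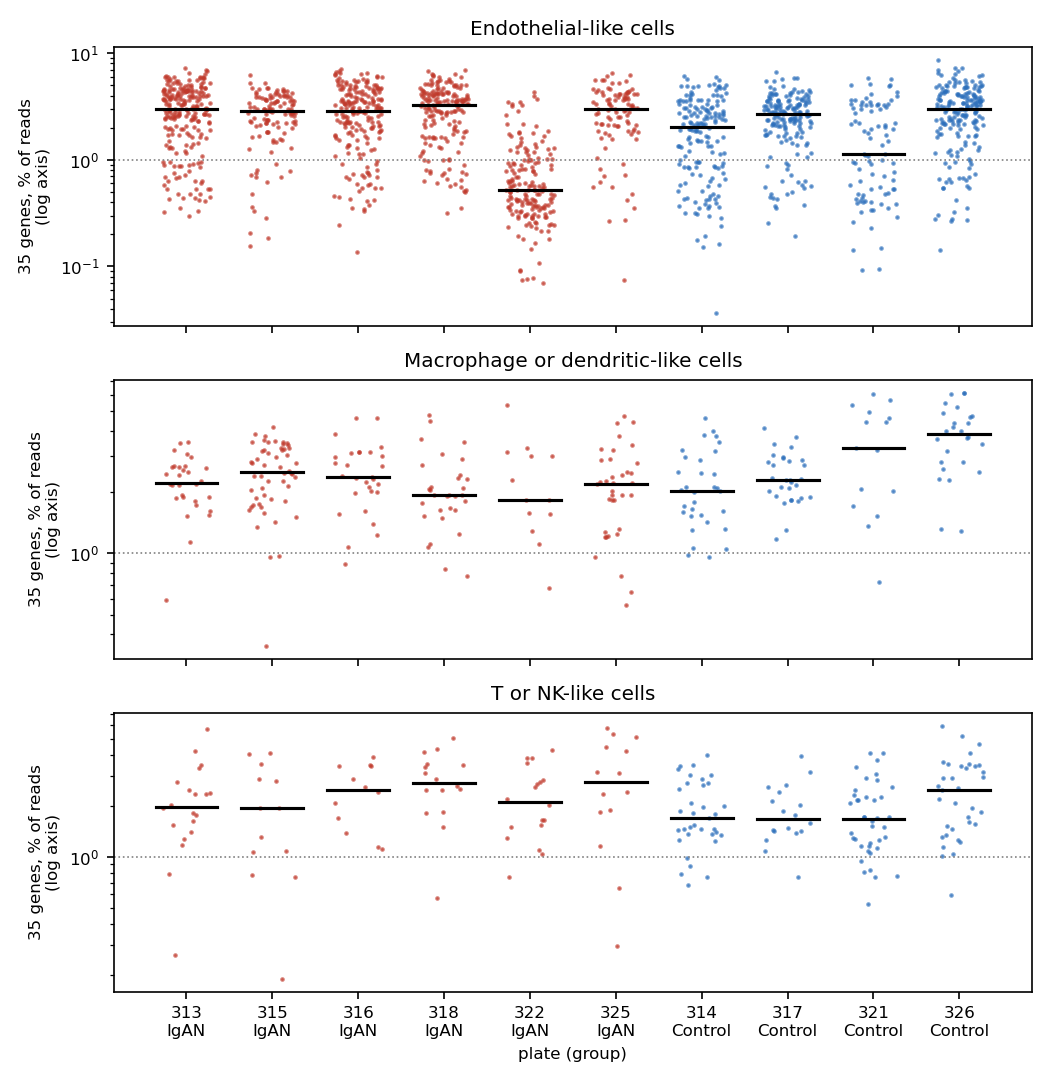
Summed level of the 35 genes in single cells (vertical, percent of reads, log axis) by plate for endothelial-like, macrophage or dendritic-like and T or NK-like cells; the bar is the median of a plate and the dotted line marks 1%. In the endothelial panel the median of plate 322 is 0.517%, below all others. In macrophage or dendritic-like cells it is 1.84%, the lowest of 10 (others 1.94 to 3.85%), and in T or NK-like cells it is 2.11%, within the range of the others.

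The comparison of IgAN with Control was made in the 6 classes with at least 2 plates of 10 or more cells in each group. A gene was counted as measured when it reached 10 CPM and was read in 10% of cells in either group, and as higher or lower when the log2 difference of the pooled levels (1 CPM added) was at least 1 and no plate of 1 group overlapped with the other group. This is a rule of size, not a test, and the share of all measured genes that met it is given beside each count.

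In endothelial-like cells, the most numerous class (998 IgAN and 614 Control cells), the groups did not separate: 0 of 30 measured genes were higher, where 0.764% of all 9687 genes were, and 0 were lower, where 0.743% were. The median log2 difference was -0.04, against 0.01 for all genes. Fos was at 4797, 4190, 4946, 4498, 901 and 4601 CPM on IgAN plates 313, 315, 316, 318, 322 and 325, and at 3595, 3985, 2795 and 4269 CPM on Control plates 314, 317, 321 and 326. Apart from plate 322 the IgAN plates lay in the upper part of the Control range or just above it. The mix of clusters in this class differed between the groups. Cluster 0 had 28 IgAN and 375 Control cells, and cluster 1 had 346 IgAN and 9 Control cells. The part of this mix in the comparison was not tested.

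The order of the plates turned on plate 322 for several genes. Egr1 was at 2740, 2483, 2720, 1903, 199 and 3053 CPM on the IgAN plates in the same order, and at 1398, 1198, 647 and 1316 CPM on the Control plates. Thus 5 IgAN plates lay above every Control plate and the other below all of them, and the pooled levels of 1893 and 1223 CPM differed by 0.63 on the log2 scale. Without plate 322 the levels were 2520 and 1220 CPM (log2 1.04) and Egr1 met the size rule, together with Dusp5 (149 against 53.0 CPM, log2 1.48), while 0.916% of all genes did. Dusp5 was at 110 against 53.0 CPM with all plates. The same order, 5 IgAN plates above every Control plate and plate 322 below all, was seen in 5 of the 30 measured genes (Egr1, Dusp5, Atf3, Klf6 and Btg2), where 0.279% of all genes had it. This order was taken from these data. Its part on plate 322 held by itself for 27 of the 30 genes, against 10.8% of all genes. The 0.279% is therefore no background for the order of IgAN above Control alone. Btg2, for example, was at 1200 to 1510 CPM on the 5 plates, 269 CPM on plate 322 and 671 to 1050 CPM on the Control plates. Without plates 321 and 322 together, only Dusp5 met the rule, where 1.08% of all genes did. Socs3, Rhob and Junb showed no such order, with pooled log2 differences of -0.29, -0.26 and -0.18.

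In T or NK-like cells (93 IgAN and 128 Control cells) 0 of 32 measured genes were higher (0.466% of 9440 genes were) and 0 lower (1.25% were), with a median log2 difference of 0.24 against 0.05 for all genes. Nr4a1 was at 3952, 2849, 4062, 5433, 2800 and 3091 CPM on the IgAN plates and 3383, 2288, 3169 and 4174 CPM on the Control plates, with full overlap. Egr1 had 644, 1817, 1837, 1442, 573 and 2989 CPM in IgAN and 487, 437, 337 and 723 CPM in Control; the pooled log2 difference was 1.25, with plates 313 and 322 within the Control range. Egr1 met the size rule without Control plate 326 (1180 against 416 CPM, log2 1.5), where 0.948% of genes did. Egr2 was at 25.1 against 92.6 CPM pooled (log2 -1.84), with 17.2, 0.791, 0.499, 1.12, 57.6 and 10.8 CPM on the IgAN plates and 32.6, 148, 88.0 and 121 CPM on the Control plates. It met the rule as lower without plate 322 (7.01 against 92.6 CPM, log2 -3.55), where 2.37% of genes did, and without Control plate 314 (25.1 against 115 CPM), where 2.03% did. The class joined 2 clusters whose mix differed between the groups. Cluster 11, led by T cell genes (Cd3e, Trac), had 32 IgAN and 83 Control cells. Cluster 12, led by NK cell genes (Gzma, Ncr1), had 61 IgAN and 45 Control cells. The part of this mix in the differences was not tested. The endothelial markers summed to 1330 CPM in IgAN (plates 433 to 5990) and 536 CPM in Control (407 to 805), with none of the 12 at 0, and their part was not tested.

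Macrophage or dendritic-like cells (193 IgAN and 103 Control cells) had 1 of 33 measured genes higher (0.737% of 9908 genes were) and 0 lower (0.454% were). The median log2 difference was -0.19, against 0.06 for all genes, and 23 of the 33 had a negative sign. The higher gene was Gadd45a, at 44.6, 22.3, 86.8, 21.0, 19.1 and 64.1 CPM on the IgAN plates and 11.0, 14.9, 4.28 and 12.8 CPM on the Control plates. The pooled levels were 37.0 and 12.0 CPM (log2 1.55). It no longer met the rule with a 50 CPM filter, with the mean of per-cell CPM or with thinned cells. Dusp2 had the most negative difference (321 against 683 CPM, log2 -1.09) with overlapping plates. Atf3 was lower on every IgAN plate (889.6 to 1520 CPM) than on any Control plate (1560 to 2444 CPM), but by a log2 difference of only -0.41. The endothelial markers summed to 2520 CPM in IgAN (plates 325 to 4010) and 1130 CPM in Control (511 to 2460), and their part was not tested.

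Mesangial-like cells (115 IgAN and 51 Control cells), the contractile support cells of the tuft, likewise had 1 of 30 measured genes higher (1.26% of 10160 genes were) and 0 lower (1.49% were), with a median log2 difference of 0.04 against 0.02 for all genes. This too was Gadd45a, at 35.5, 6.04, 14.0, 34.9, 9.64 and 90.4 CPM on the IgAN plates and 5.95, 1.86 and 2.91 CPM on Control plates 314, 317 and 326. The lowest IgAN plate and the highest Control plate thus all but touched, and the call was lost under TMM scaling. The pooled levels were 30.7 and 3.43 CPM (log2 2.84). Podocyte-like cells, where Gadd45a is at its highest, had 779 CPM in IgAN and 731 CPM in Control, and in the mesangial-like cells of IgAN the podocyte markers summed to 879 CPM (plates 238 to 4290) against 515 CPM (365 to 602) in Control, a difference whose part was not tested. Dusp5 (195 against 34.7 CPM, log2 2.46) rested on plates 313 and 318, at 445 and 370 CPM, with the other IgAN plates at 2.68 to 50.4 CPM.

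Podocyte-like cells, the epithelial cells whose foot processes cover the capillaries, were the class with the most genes past the size rule, and they were few in IgAN (39 cells against 146). Of 29 measured genes, 11 were lower, where 6.35% of all 9547 genes were, and 2 were higher, where 3.73% were. The median log2 difference was -0.83, against -0.06 for all genes. The lower genes were the AP-1 genes Fos (326 against 1088 CPM, log2 -1.74), Fosb (9.50 against 156 CPM, -3.90), Jun (154 against 575 CPM, -1.90) and Junb (135 against 523 CPM, -1.95), then Egr1 (115 against 755 CPM, -2.71), Ier2 (37.4 against 397 CPM, -3.37), Zfp36 (88.3 against 429 CPM, -2.27), Dusp1 (193 against 880.5 CPM, -2.19) and Socs3 (13.2 against 70.4 CPM, -2.33). Ppp1r15a and Rhob passed barely, both at -1.02. Nr4a1 (2121 against 852 CPM, log2 1.31) and Gadd45b (157 against 37.8 CPM, 2.03) were higher. Zfp36l1 (999 against 968 CPM) and Gadd45a (779 against 731 CPM) had log2 differences of 0.05 and 0.09.

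Only IgAN plates 313 and 316 had 10 or more podocyte-like cells (15 and 10), so the rule compared these with the 4 Control plates (46, 27, 26 and 47 cells). Fos was at 172 and 103 CPM on plates 313 and 316 and at 1632, 1259, 824 and 513 CPM on the Control plates. The 4 IgAN plates with 2 to 6 cells count in the pooled levels but not in the overlap of plates, and had 731, 393, 619 and 805 CPM of Fos, and 3 of these lay within the Control range. Ier2 by contrast was at 31.0, 16.0, 64.9, 40.8, 15.2 and 45.7 CPM on all 6 IgAN plates and at 536, 535, 316 and 184 CPM on the Control plates, without overlap. Nr4a1 was at 2486 and 2772 CPM on the larger IgAN plates, 986 to 1859 CPM on the smaller ones, and 1113, 423, 1613 and 469 CPM on the Control plates. Counting plates from 5 cells up left 6 genes lower (Fos, Fosb, Jun, Junb, Ier2 and Dusp1), where 5.11% of all genes were, and 2 higher, where 1.56% were. From 2 cells up 4 were lower (Fosb, Jun, Ier2 and Dusp1), where 3.59% of all genes were, and 0 higher, where 0.189% were.

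**Figure D4:**
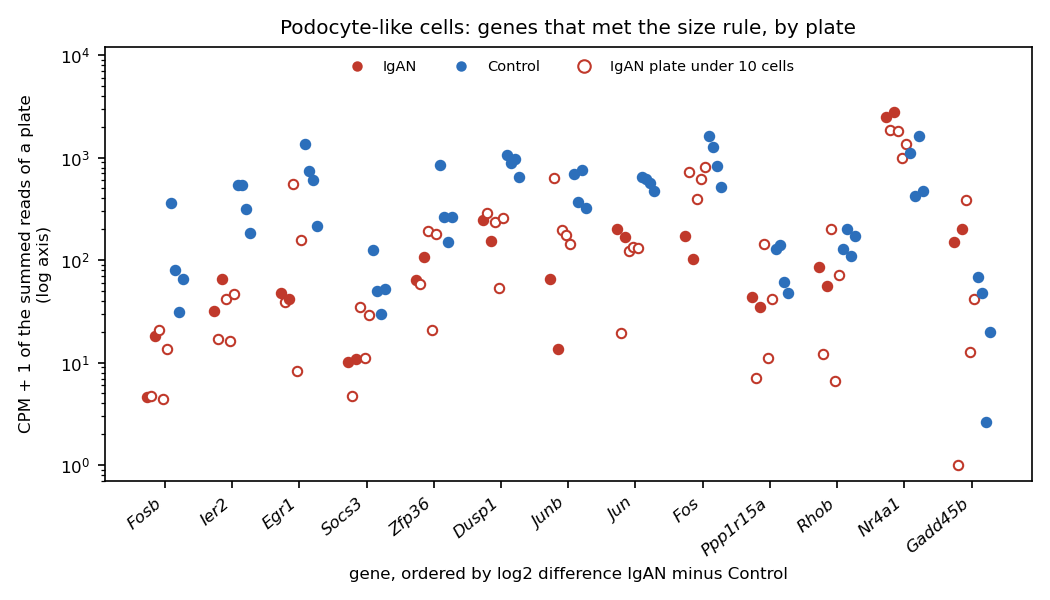
Level of the 13 genes that met the size rule in podocyte-like cells (CPM plus 1, log axis), with 1 point per plate; filled points are plates with at least 10 cells and open points are IgAN plates with 2 to 6 cells. Ier2, Jun, Dusp1 and Fosb keep all IgAN points below the Control points, while for Fos and Egr1 open points reach the Control range.

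For Fos and Egr1 the groups were further apart in the upper tail of cells than in the median cell. The median podocyte-like cell had 113 CPM of Fos in IgAN and 154 CPM in Control, and 48.0 and 50.3 CPM of Egr1. The 95th percentiles were 1240 and 5080 CPM for Fos, and 286 and 4080 CPM for Egr1. For Jun (55.9 against 221 CPM) and Junb (20.6 against 126 CPM) the medians differed as well, and for Nr4a1 the median cell had 2080 CPM in IgAN and 233 CPM in Control. The summed level of the 35 genes had the higher median in IgAN (0.844% against 0.623%), but its 95th percentile was 1.29% in IgAN and 3.47% in Control. Within plates, Junb with Egr1 (Spearman 0.64) and Fos with Egr1 (0.59) varied together in these cells. Leaving out Control plate 314, which held the highest Fosb (362 CPM), took the Fosb difference to -2.56 and the Egr1 difference to -2.05.

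Markers of other cells in the podocyte-like class were summed in the same way. The 11 podocyte markers came to 25700 CPM in IgAN and 27500 CPM in Control, and the 12 endothelial markers to 1670 CPM (plates 1390 and 1670) and 1910 CPM (1720 to 2150). Smooth muscle and renin markers came to 219 CPM (plates 116 and 231) against 37.7 CPM (20.7 to 66.8), and fibroblast markers to 608 CPM (250 and 458, with 2 of 6 at 0) against 100 CPM (4.89 to 267, with 2 at 0). Parietal epithelial markers came to 585 CPM (plates 550 and 778, with 1 of 7 at 0) against 418 CPM (354 to 482). Across cells, the summed level of the 35 genes correlated with the endothelial markers at 0.01 in IgAN and -0.22 in Control, with the podocyte markers at 0.01 and -0.40, with smooth muscle and renin markers at 0.08 and -0.14, with fibroblast markers at 0.07 and -0.05, and with parietal markers at -0.03 and 0.10. The part of these markers in the result was not tested.

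In proximal tubule-like cells (147 IgAN and 85 Control cells), the reabsorbing epithelium next to the glomerulus, all 30 measured genes had a positive difference, with a median log2 of 2.96 against 0.32 for all genes. The size rule counted 4 as higher, where 6.77% of all 10408 genes were, and 0 as lower, where 2.26% were. These were Egr1 (1158 against 41.1 CPM, log2 4.78), Ier3 (277 against 5.6 CPM, 5.40), Gadd45b (82.4 against 2.99 CPM, 4.39) and Rhob (587 against 40.2 CPM, 3.84). Egr1 was at 1227, 78.6, 251 and 2062 CPM on IgAN plates 315, 316, 318 and 325 and at 38.0, 39.3 and 43.5 CPM on Control plates 314, 317 and 321. Fos was at 1867, 101, 424 and 2830 CPM on the same IgAN plates and at 208, 197 and 221 CPM in Control, so that plate 316 lay below Control. Without plate 316, 15 genes met the rule, where 15.3% of all genes did.

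Endothelial markers also differed between the groups in these cells. The 12 endothelial markers summed to 5470 CPM in the proximal tubule-like cells of IgAN (plates 240 to 10000) and to 219 CPM in those of Control (158 to 321), with none of the 12 at 0 in either. By plate, the median cell had 10600 CPM of them and 2.11% of reads in the 35 genes on plate 325, 1592 CPM and 0.781% on plate 315, and 1064 CPM and 0.371% on plate 318. On plate 316 it had 260 CPM and 0.122%, close to 204 CPM and 0.122% on Control plate 314. Within a plate the markers and the summed level had a Spearman correlation of 0.90 on plate 315 and 0.73 on plate 325. It was 0.49 on IgAN plate 318 and 0.19 on IgAN plate 316. On Control plates 317, 321 and 314 it was 0.61, 0.28 and -0.21. The part of endothelial RNA in the result was not tested.

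Among cells with less than 500 CPM of endothelial markers, a limit chosen after the data were seen, the median summed level was 0.181% in 57 IgAN cells and 0.166% in 75 Control cells, and the median log2 difference of the genes was 0.24. Egr1 (117 against 38.9 CPM, log2 1.57) and Rhob (117 against 32.8 CPM, log2 1.81) still met the size rule there, where 8.42% of all genes did. Without the cells that carried markers of 2 classes the median difference was 0.00, and Egr1 (124 against 44.5 CPM, log2 1.46) alone met the rule, where 7.78% of genes did.

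**Figure D5:**
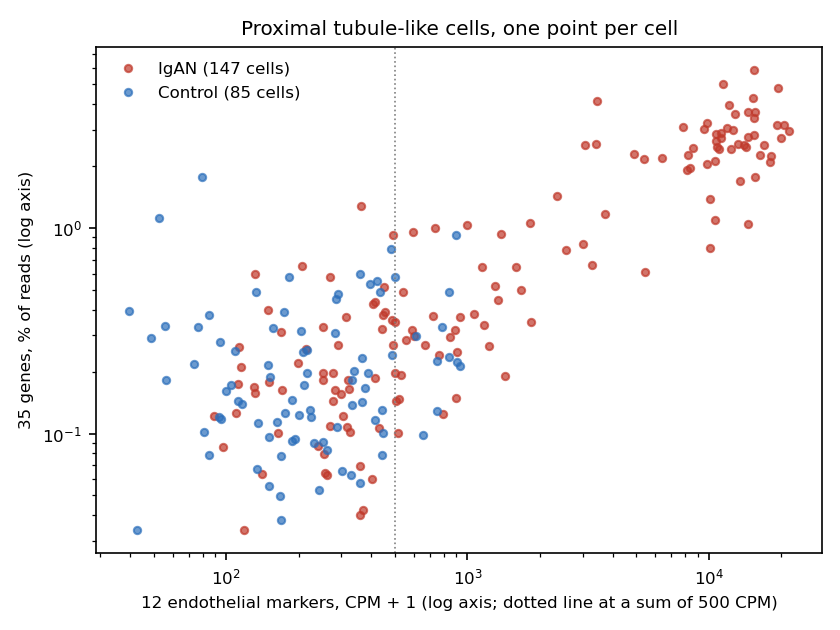
Summed level of the 35 genes (percent of reads, vertical) against the summed 12 endothelial markers (CPM plus 1, horizontal) in each proximal tubule-like cell, coloured by group; the dotted line marks 500 CPM. Cells to the left of the line have medians of 0.181% (IgAN) and 0.166% (Control), and the cells to the right, 90 from IgAN and 10 from Control, have medians of 1.95% and 0.23%.

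Further genes of the same response were followed in 4 lists: 44 other immediate early or signal-response genes, 12 dimer partners and related bZIP factors, 20 kinases and ternary complex factors upstream, and 13 heat shock genes. In endothelial-like cells no listed gene met the size rule, where 0.764% of all genes were higher and 0.743% lower. None did in T or NK-like cells either, where 0.466% of all genes were higher and 1.25% lower. In macrophage or dendritic-like cells only the JNK gene Mapk9 did, as higher (49.5 against 20.3 CPM), where 0.737% of all genes were. In podocyte-like cells 1 of 31 measured signal-response genes was higher (the kinase gene Sik1, 160 against 63.1 CPM) and 4 were lower: Klf2 (28.9 against 78.1 CPM), Klf10 (1.77 against 17.7 CPM), Bhlhe40 (14.9 against 41.6 CPM) and Cebpd (3.63 against 41.5 CPM). Their list's median was 0.14, of the opposite sign to that of the 35 genes. Of 8 bZIP partners 1 was lower (Mafg), and of 17 kinases 1 was higher (Mapkapk2) and 1 lower (Braf). Of 12 heat shock genes 1 was higher (Bag3, 144 against 48.4 CPM) and 2 lower (Hspa1a, 8.10 against 50.6 CPM, and Dnajb4, 65.2 against 168 CPM). Of all measured genes in podocyte-like cells 3.73% were higher and 6.35% lower.

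In proximal tubule-like cells 6 of 38 signal-response genes were higher (Arc, Ctgf, Irf1, Pim1, Arid5a and Cebpd) and 2 of 13 heat shock genes (Dnajb1 and Hspb1), with list medians of 2.31 and 0.42. None of the 9 bZIP partners and 18 kinases measured there met the rule. Of all measured genes in this class 6.77% were higher. The endothelial markers summed there to 5470 CPM in IgAN and 219 CPM in Control, and their part in the listed genes was not tested. In mesangial-like cells 1 of 35 signal-response genes was higher, Ptgs2, the inducible cyclooxygenase, at 138 CPM from 3663 reads in IgAN and 0.0763 CPM from 1 read in Control (exact 95% Poisson interval 0.00193 to 0.425 CPM). Its IgAN plates ran from 3.48 to 360 CPM. Mafk (35.4 against 111 CPM) and Arid5a (13.0 against 88.8 CPM) were lower. Of all measured genes in mesangial-like cells 1.26% were higher and 1.49% lower. The most abundant listed genes were Sgk1 (3340 CPM in endothelial-like cells), Nfkbia, Klf2 and Ctgf among the signal-response genes, and Hsp90ab1, at 1150 to 1730 CPM in all 6 classes, among the heat shock genes.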

How the data were processed

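Reads were aligned with TopHat2 2.1.1 to GRCm38 (mm10) and assigned to genes with featureCounts of Subread 1.4.6-p5, with SAMtools 0.1.18 also named, per the submitters' processing notes. The deposited table, made by the authors, holds whole-number counts of reads per gene and cell, not normalized. Smart-seq2 keeps no strand, so overlapping genes cannot be told apart, and with no molecular identifiers all intervals cover counting error only. The 35 genes, the lists and the rules were chosen with earlier results of these data known.

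Cells (all 3143 kept) were clustered with scanpy 1.11.5 and leidenalg 0.10.2 in Python 3.11.15 (2000 variable genes, 30 components, 15 neighbours, resolution 1) without the 35 genes and the 4 lists. Doublets were not removed. Cells whose markers of another class reached 0.5 times that class's median (mean log2 of CPM plus 1; 928 cells) were left out in an alternative. Levels are summed reads as CPM, compared as described beside the results; plates need 10 cells. The alternatives changed the scaling (TMM from edgeR 4.0.16, median of ratios), filter, pseudocount, weighting, thinning, clustering and plates. Of these choices, 4 (plates of 2 cells, endothelial markers under 500 CPM, no plates 321 and 322, the 1% limit) were added after seeing the data. The order of endothelial-like plates described with Egr1 was also taken from the data. Named are all 35 genes, listed genes that met the size rule or have the 4 highest means, and the 8 nearest genes. Promoters are from RefSeq (GRCm38.p6).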

Additional observations from a re-analysis of the deposited data

Results flagged for a closer look

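A plate's value was looked at again when its gap to the nearest other plate of its group, divided by the group's range, passed Dixon's 95% critical value. This was done in 50 groups of plates, for summed levels and for named genes, and 10 were picked out, where chance picks about 1 in 20. In endothelial-like cells, IgAN plate 322 was far below the other 5 IgAN plates in the summed level (0.773% of reads against 2.85 to 3.16%), in Fos (901 CPM against 4190 to 4950), Junb (612 CPM against 1810 to 2370), Klf6 (188 CPM against 402 to 459), Zfp36 (393 CPM against 2030 to 2710) and Btg2 (269 CPM against 1200 to 1510). These 6 share the same cells and are not independent of each other.

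In T or NK-like cells, Control plate 326 was above the other Control plates in the summed level (2.46% against 1.82 to 1.90%). In podocyte-like cells, Control plate 314 was above the other Control plates in Fosb (362 CPM against 30.0 to 78.4) and Zfp36 (849 CPM against 151 to 264). In mesangial-like cells, IgAN plate 325 was above the other IgAN plates in Gadd45a (90.4 CPM against 6.04 to 35.5).

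The difference between IgAN and Control had opposite signs in 2 classes for 2 genes, with no overlap of the plates used in either class. Egr1 was higher in proximal tubule-like cells (log2 4.78) and lower in podocyte-like cells (log2 -2.71), 7.49 apart. Rhob was at 3.84 and -1.02, which is 4.85 apart. Over the alternatives Rhob kept its call in 20 of 26 in proximal tubule-like and 13 of 25 in podocyte-like cells. Egr1 kept its call in 24 of 26 and 23 of 25. In proximal tubule-like cells under 500 CPM of endothelial markers the differences were 1.57 (Egr1) and 1.81 (Rhob), and the part of endothelial RNA was not tested. The difference between the classes was not tested.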

How the results depend on the processing

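With 1 sample per group nothing here was tested, and labels name no animal. Across the alternatives, differences by gene were followed only for genes that met the size rule with the main settings, each in that class. None of these changed sign, but they were chosen for large differences, and the signs of the other genes were not followed. Of 154 medians 12 changed sign: 6 in endothelial-like cells (main -0.04, range -0.17 to 0.20) and 6 in mesangial-like cells (main 0.04, range -0.18 to 0.21). Within 1.5 times of the main count were 284 of 308 counts of genes past the rule. Within 1 SD over plates of the main value were 151 of 154 medians, 85 of 85 summed levels and 464 of 480 values of the genes followed. Where few plates differ widely that SD is wide (distal-like summed level 0.177 to 1.41% on leaving out a plate). In endothelial-like cells leaving out a plate gave 0 to 2 higher genes (2 without plate 322, where 0.916% of all genes were). Without plates 321 and 322 the count was 1, where 1.08% of all genes were higher. In macrophage or dendritic-like cells 0 were higher with a 50 CPM filter, per-cell means or thinning, against 1. Of all genes 0.544, 0.745 and 0.638% were higher there. In proximal tubule-like cells the count of higher genes, against 4, is given with the share of all genes in brackets. It was 2 with median of ratios (5.23%) and 1 without cells carrying markers of 2 classes (7.78%). It was 1 with plates of 5 cells (3.62%), 0 with plates of 2 cells (1.22%) and 2 under 500 CPM of endothelial markers (8.42%). Leaving out a plate gave 4 to 15 (6.79 to 15.3%). The median of 2.96 became 0.00 without the cells of 2 classes and 0.24 under 500 CPM. In T or NK-like cells, leaving out a plate gave 0 to 1 higher (0.579 to 0.948% of all genes) and 0 to 1 lower (1.66 to 2.37%). Removing cells of 2 classes gave 1 higher (Egr1), where 4.71% of all 9145 genes were, and 1 lower (Myc), where 5.81% were. Leaving out plates 321 and 322 gave 1 lower, where 3.49% of all genes were. In podocyte-like cells the median of -0.83 became -1.27 with plates weighted equally. Lower genes were 6 with plates of 5 cells (5.11% of all genes were lower) and 4 with plates of 2 cells (3.59%), where 0 were higher (0.189%). Leaving out a plate gave 9 to 13 lower, where 6.36 to 12.6% of all genes were (main 6.35%). It gave 2 to 4 higher, where 3.92 to 7.28% were (main 3.73%). There, Ppp1r15a kept its call on leaving out a plate in 4 of 10 cases and Rhob in 5. In mesangial-like cells 0 were higher with TMM, a 50 CPM filter or clusters made with all genes, against 1. Of all genes 1.03, 1.16 and 1.29% were higher there. Without cells of 2 classes too few podocyte-like and mesangial-like cells were left for a comparison, and no summed level could be had for mesangial-like, parietal-like and distal-like cells. No paired analysis was possible because plates carry no shared number across groups and no test was made.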

Other observations

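Classes with too few cells for values by plate also carried these genes. The 20 neutrophil-like cells (8 IgAN, 12 Control) had 3.80% of their summed reads in the 35 genes, and the median cell had 4.01%, with all 20 cells above 1%. The 32 smooth muscle or renin-like cells, of the arterioles at the tuft, had 2.46%, against 1.20% in mesangial-like cells, and 27 of 32 were at or above 1%. In distal tubule or collecting duct-like cells, the median was 1.26% for 11 cells of IgAN plate 315 and 0.192% for 11 cells of Control plate 321. The 12 endothelial markers summed there to 10800 CPM on plate 315 and 1720 CPM on plate 321, and their part was not tested.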
